A study of Mus musculus with 6 samples.

Results

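The BCL2 family decides whether a cell opens the outer membrane of its mitochondria and dies by apoptosis. Anti-apoptotic members (MCL1, BCL2, BCL-XL and BCL-W) bind and restrain the pore-forming effectors BAX and BAK, and BH3-only members (among them BIM, PUMA, BID and BMF) respond to stress by occupying the anti-apoptotic proteins or activating the effectors. Pluripotent cells are known for a low threshold to apoptosis, and MCL1 is needed around the time of implantation in the mouse embryo. Mcl1 and Bcl2 have been described as genes that respond to serum response factor (SRF), a transcription factor that binds a sequence called the CArG box.

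The 10 members were taken by name from the deposited count table and are Mcl1, Bcl2, Bcl2l1 (BCL-XL), Bcl2l2 (BCL-W), Bax, Bak1, Bcl2l11 (BIM), Bbc3 (PUMA), Bid and Bmf. All 10 were present among 24421 gene entries, and all 10 passed the filter on low counts, which left 14778 genes. The libraries came from mouse induced pluripotent stem cells (iPSCs) grown with serum. Per the labels, 3 carried the deleted allele of SRF (SRFΔ/Δ, here SRF KO) and 3 the intact conditional allele (SRFf/f, here WT). The labels do not say how or when the deletion was made, how many clones were used or whether feeder cells were present, nor that replicates were separate cultures, so the p-values measure only the spread between these libraries. Counts are per gene, so that splice forms with different activity, known for Bcl2l1, Mcl1 and Bcl2l11, cannot be told apart.

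Total counts were between 26321602 and 36680156 per library, and WT replicate 2 lay apart from the other WT libraries on the second principal component (-23.1 against 9.28 and 15.5). SRF KO replicate 2 lay to the same side of its own group, by less (-7.38 against 2.94 and 2.75). Srf stood at 34.5 ± 4.14 CPM (counts per 1000000 counts of a library, with TMM scaling) in the WT libraries and at 3.97 ± 0.707 CPM, 11.5% of that, in the SRF KO libraries (SD, n = 3). The 10 pluripotency markers were abundant in both groups, with a summed level of 5220 to 5330 CPM in SRF KO and 6270 to 6760 CPM in WT (1 higher, 5 lower). Markers of 2 other cell types moved with the groups. All 12 markers of primitive and visceral endoderm were higher in SRF KO (summed level 2300 to 2460 CPM, against 197 to 216 CPM in WT), as were all 12 fibroblast markers (1060 to 1280 CPM against 518 to 603 CPM). Of all genes tested, 21.2% were higher and 21.3% lower at the threshold given below. None of the endoderm or fibroblast markers was at 0 in all libraries, although Ttr was at 0 in every WT library. The part of these cells in the results below was not tested, and in bulk RNA fewer cells of a type and less RNA per cell cannot be told apart.

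Because Mcl1 and Bcl2 have been linked to SRF, the promoters of the members were searched for the CArG box, with SRF's own promoter, known to carry such boxes, beside them. The RefSeq table (GRCm38.p6, the assembly called mm10 in the submitters' processing notes) gave 17 promoter windows for the 10 members, each from 250 bases before to 50 bases after a transcription start. The box reads the same on both strands. No member window held an exact box, against 1.63% of all 32841 windows. With at most 1 mismatch, 3 of 10 members held a match (Mcl1, Bmf and Bcl2l2), against 23.7% of 27018 genes, a share too close to say anything about the family. The sequences below, 5′ to 3′ on the strand of the gene, show the match in capitals with 10 bases on either side.
Srf, first exact box, chr17:46556225-46556254 (minus strand): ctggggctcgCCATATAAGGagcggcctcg
Srf, second exact box, chr17:46556205-46556234 (minus strand): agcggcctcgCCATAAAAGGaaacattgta
Mcl1, 1 mismatch, chr3:95658703-95658732 (plus strand): gcccctttccCCTTTTACGGgaagtcctcg
Bmf, 1 mismatch, chr2:118549786-118549815 (minus strand): gcgcccggccCCTTATAATGtttccaaggg
Bcl2l2, 1 mismatch, chr14:54883255-54883284 (plus strand): tctgaacagcCCTTCAATGGccctctcttc
The Mcl1 match began 8 bases before the RefSeq start, the Bmf match 119 and the Bcl2l2 match 160 bases before it. At the Mcl1 match the letters GGAA, the core bound by ETS factors that partner SRF, overlap the last base of the box, and TTCC, the same core on the other strand, ends just before it. TTCC also follows the Bmf match within 10 bases. A match with at most 1 mismatch and such a core within 10 bases of it, overlaps with the box not counted, was present in 4.0% of genes and 3.44% of windows, and GGAA on either strand anywhere in 96.0% of windows. The same Bmf window held another match with 1 mismatch beginning 38 bases after the start. These are matches of letters only, since no binding was measured, and boxes outside the windows were not searched.

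Mcl1, Bcl2l1, Bcl2 and Bmf differed between SRF KO and WT, and the other 6 members did not pass the threshold. The 2 rises, of Bcl2l1 and Bcl2, and 1 of the 2 falls, that of Mcl1, were in anti-apoptotic genes, and the other fall was in the BH3-only gene Bmf. Neither effector passed the threshold. At an adjusted p under 0.05 (edgeR quasi-likelihood test, Benjamini-Hochberg over all features), 2 of 10 members were higher and 2 lower, while 21.2% of all genes tested were higher and 21.3% lower, together 42.4%. The share of members called, 4 of 10, was thus close to that of all genes. Its median log2 fold change was -0.06, against -0.0127 over all genes. In 7 members the libraries of one group all lay on one side of those of the other, 2 of them higher and 5 lower in SRF KO, where 26.2% of all genes were separated upward and 26.5% downward (52.7% together). Without WT replicate 2, 4 members were lower, since Bcl2l2 and Bid then passed. Calls rose over all genes in that fit too, to 3809 lower and 3652 higher, against 3141 and 3132 with all 6 libraries.

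**Figure D1:**
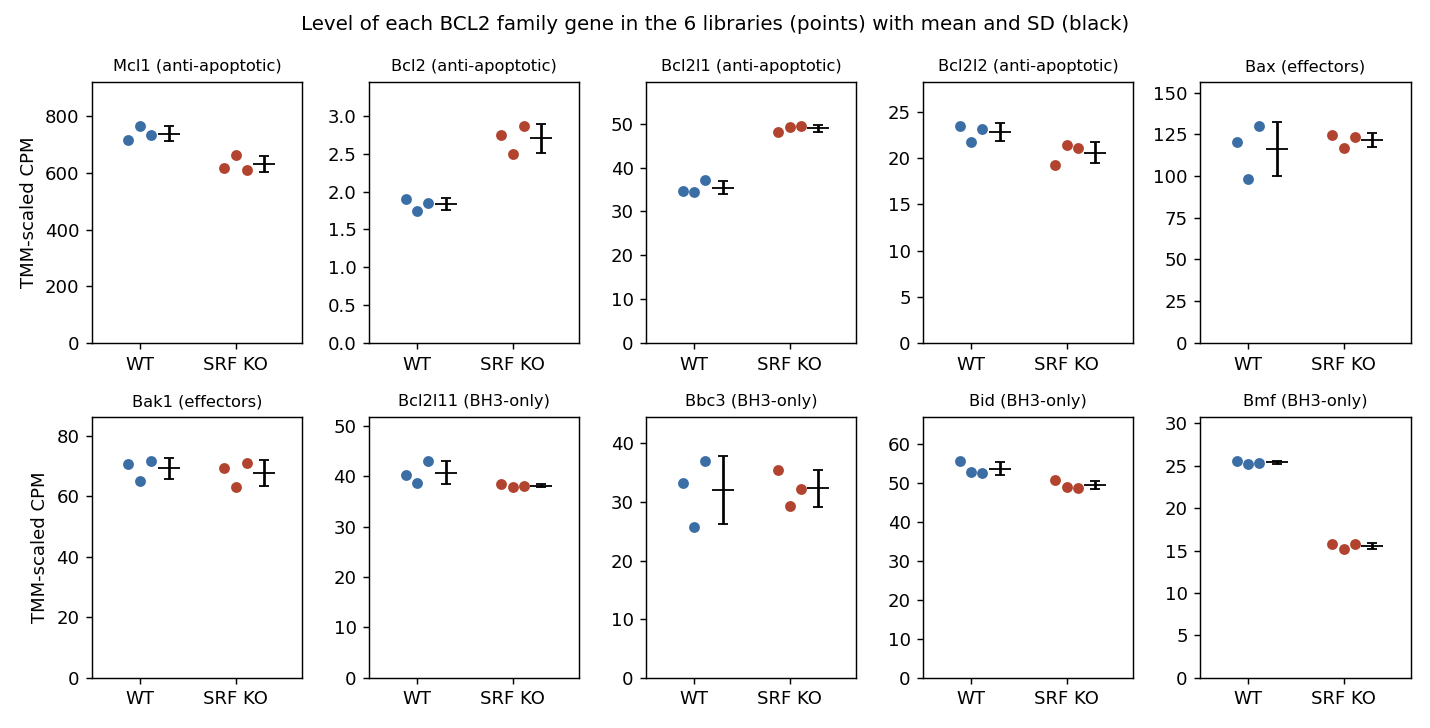
TMM-scaled CPM (vertical axis, from 0) of each of the 10 members in the 3 WT (blue) and 3 SRF KO (red) libraries, in the order of the replicate numbers, with the mean and SD in black. Bmf fell from 25.4 to 15.6 CPM and Bcl2l1 rose from 35.4 to 48.9 CPM with no overlap, while the values of Bax, Bak1 and Bbc3 overlapped.

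Among the anti-apoptotic members, Mcl1 (chr3:95658788-95663176, plus strand, ENSMUSG00000038612.16 in GENCODE M21) encodes a short-lived protein that restrains BAK and binds BH3-only proteins. It was at 618, 662 and 611 CPM in SRF KO replicates 1 to 3 and at 715, 766 and 732 CPM in WT replicates 1 to 3. Every SRF KO library lay below every WT library, though the gap between the highest SRF KO and the lowest WT library was small. The SRF KO mean of 630.4 ± 27.6 CPM was 85.5% of the WT mean of 738 ± 26.1 CPM (SD, n = 3). This is a log2 fold change of -0.23 (SE 0.052, adjusted p 0.0045). It was a modest fall by the measure of these libraries, since 46.8% of all genes had a larger absolute fold change, but it touched one of the most abundant messages, with 99% of genes below it in mean CPM.

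Bcl2l1 (chr2:152780668-152831728, minus strand, ENSMUSG00000007659.18) encodes BCL-XL, which restrains BAX and BAK at the mitochondrial membrane. Its level was 48.1, 49.2 and 49.5 CPM in SRF KO and 34.7, 34.4 and 37.2 CPM in WT. The groups were far apart compared with their spread, at 48.9 ± 0.781 CPM and 35.4 ± 1.53 CPM (SD, n = 3), or 138% of WT. The rise on the log2 scale was 0.47 (SE 0.057, adjusted p 5.5e-05), and it was between 0.45 and 0.50 whichever library was left out.

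Bcl2 (chr1:106538178-106714274, minus strand, ENSMUSG00000057329.7), the founding member of the family, had a very low message level. It had 74, 66 and 83 counts in SRF KO and 69, 45 and 53 counts in WT, which is 2.75, 2.49 and 2.87 CPM against 1.91, 1.75 and 1.85 CPM. All 3 SRF KO libraries were above all 3 WT libraries, and the log2 fold change was 0.56 (SE 0.142, adjusted p 0.0085). Without SRF KO replicate 3 it was 0.51 with an adjusted p still under the threshold, as in each of the 6 fits that left out 1 library. Its fold change was thus the highest of the members, at the lowest level.

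Bcl2l2 (chr14:54883377-54888234, plus strand, ENSMUSG00000089682.10) encodes BCL-W, a close relative of BCL-XL. It was at 19.3, 21.4 and 21.1 CPM in SRF KO and 23.5, 21.7 and 23.2 CPM in WT. The values did not overlap, but SRF KO replicate 2 and WT replicate 2 were close, and the log2 fold change of -0.15 (95% interval -0.30 to 0.01) did not pass the threshold (adjusted p 0.12). Without WT replicate 2 it was -0.18 and passed (adjusted p 0.036). A transcript annotated as Gm20521, on the same strand and not a row of the table, shares 13.3% of the exon bases of Bcl2l2, so that reads from it can have been counted here.

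For the effectors no difference between the groups passed the threshold. Bax (chr7:45461697-45466898, minus strand, ENSMUSG00000003873.11) was at 124, 117 and 123 CPM in SRF KO and 120.4, 98.15 and 130.1 CPM in WT. The WT libraries spread around the SRF KO libraries, with WT replicate 2 the lowest of all 6. The log2 fold change was 0.06 (95% interval -0.12 to 0.25, adjusted p 0.58), and it was -0.04 without WT replicate 2. A gene annotated as Gm45808, on the same strand and not counted as a gene of its own, shares 12.2% of the exon bases of Bax. Reads from it can have been counted as Bax. Bak1 (chr17:27019810-27029009, minus strand, ENSMUSG00000057789.14) was at 69.2, 63.0 and 70.9 CPM in SRF KO and 70.7, 65.2 and 71.8 CPM in WT. In both groups replicate 2 was the lowest, and the log2 fold change was -0.03 (95% interval -0.17 to 0.10, adjusted p 0.70). Its sign depended on the scaling and turned to 0.0044 when libraries were scaled to their total count alone. Ggnbp1, which shares exon bases with Bak1 on the other strand, had at most 216 counts in any library, against 1667 or more for Bak1.

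Bmf (chr2:118528757-118549687, minus strand, ENSMUSG00000040093.15) had the largest absolute fold change of the 10 members. It encodes a BH3-only protein that is held at actin-based myosin V motors and is linked to death after loss of attachment. Its level was 15.8, 15.2 and 15.7 CPM in SRF KO and 25.6, 25.3 and 25.3 CPM in WT. The libraries within each group were nearly alike and the groups were far apart, at 15.6 ± 0.349 CPM and 25.4 ± 0.196 CPM (SD, n = 3), or 61.3% of WT. On the log2 scale the change was -0.70 (SE 0.065, adjusted p 6e-06), and 13.6% of all genes had a larger absolute fold change.

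The other BH3-only members did not pass. Bid (chr6:120891930-120916853, minus strand, ENSMUSG00000004446.12), whose protein is cut by caspase-8 to link death receptors to mitochondria, was at 50.55, 48.95 and 48.5 CPM in SRF KO and 55.7, 52.75 and 52.4 CPM in WT. All 3 SRF KO libraries were lower, by a log2 fold change of -0.12 (95% interval -0.24 to -0.01, unadjusted) with an adjusted p of 0.088. Without WT replicate 2 Bid was at -0.13 and passed (adjusted p 0.041), and it passed with the replicate number as a block (-0.12, adjusted p 0.039). Bcl2l13 shares 17.7% of the exon bases of Bid on the other strand and had 1808 to 2654 counts per library, so that without strand in the counting some reads of Bid could be of either gene.

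Bcl2l11 (chr2:128126038-128162547, plus strand, ENSMUSG00000027381.16) encodes BIM, a potent activator of BAX and BAK that is held at microtubule motors. It was at 38.4, 37.9 and 38.0 CPM in SRF KO and 40.3, 38.7 and 43.1 CPM in WT. The SRF KO libraries were all lower but only just, with a log2 fold change of -0.10 (95% interval -0.23 to 0.03, adjusted p 0.23). Bbc3 (chr7:16308393-16318205, plus strand, ENSMUSG00000002083.13) encodes PUMA, a target of p53, and was at 35.5, 29.3 and 32.3 CPM in SRF KO and 33.3, 25.65 and 37.1 CPM in WT. The groups overlapped throughout and replicate 2 was the lowest in each. The log2 fold change was 0.01 (95% interval -0.24 to 0.27, adjusted p 0.94), and it turned to -0.06 when SRF KO replicate 1 was left out and to -0.11 when WT replicate 2 was. These libraries can therefore hold differences in Bbc3 and Bax of the size of that interval without showing them.

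**Figure D2:**
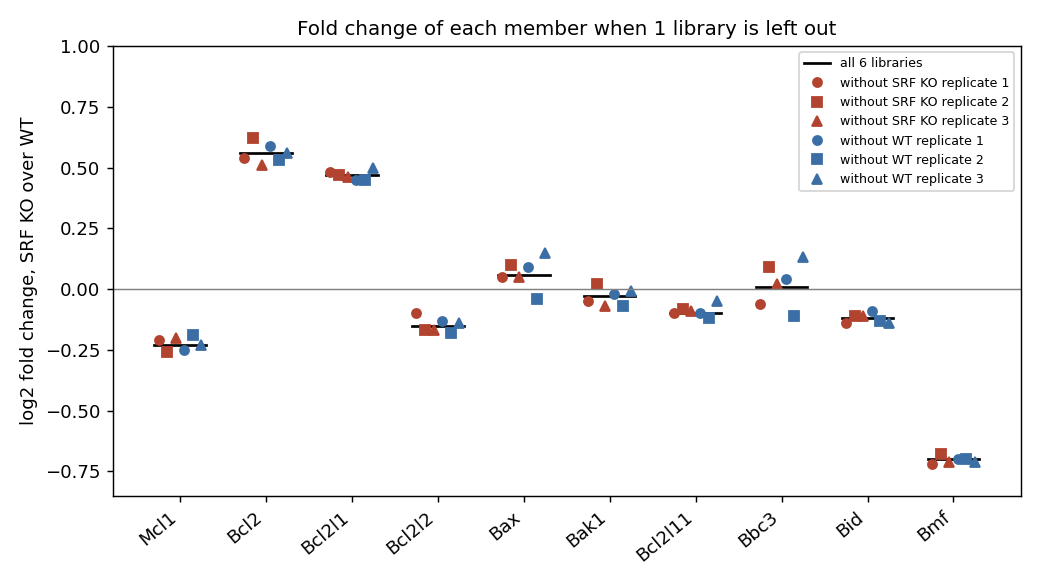
Log2 fold change of SRF KO over WT (vertical axis) of the 10 members with all 6 libraries (black line) and in the 6 fits that each left out 1 library (points, red for SRF KO and blue for WT). Bmf stayed between -0.72 and -0.68 and Bcl2l1 between 0.45 and 0.50, while Bax ranged from -0.04 to 0.15 and Bbc3 from -0.11 to 0.13.

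To set the members side by side, their levels were divided by the length of the longest annotated transcript. Mcl1 led in WT with 216 ± 7.64 CPM per kb, followed by Bax at 106 ± 14.9 and Bak1 at 29.0 ± 1.48 CPM per kb (SD, n = 3). Bid (22.2), Bbc3 (17.6), Bcl2l1 (13.8), Bcl2l11 (8.08), Bcl2l2 (5.98) and Bmf (5.47 CPM per kb) came next, and Bcl2 was last at 0.255 CPM per kb. Of neighbours in this order, only Bbc3 and Bcl2l1 overlapped between WT libraries with this length. In SRF KO, Bcl2l1 stood at 19.1 ± 0.303 and Bbc3 at 17.8 ± 1.73 CPM per kb (SD, n = 3). With all exons joined as the length, parts of the order changed. Bid and Bbc3 were then both at 15.1 CPM per kb in WT and overlapped, Bcl2l11 (5.07) overlapped Bcl2l2 (5.11), and Bbc3 no longer overlapped Bcl2l1 (7.73 CPM per kb). Bmf (4.84 CPM per kb) then overlapped both Bcl2l11 and Bcl2l2 in WT. In SRF KO Bcl2l1 (10.7) then lay below Bbc3 (15.2 CPM per kb), so that their order there depends on the length used.

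**Figure D3:**
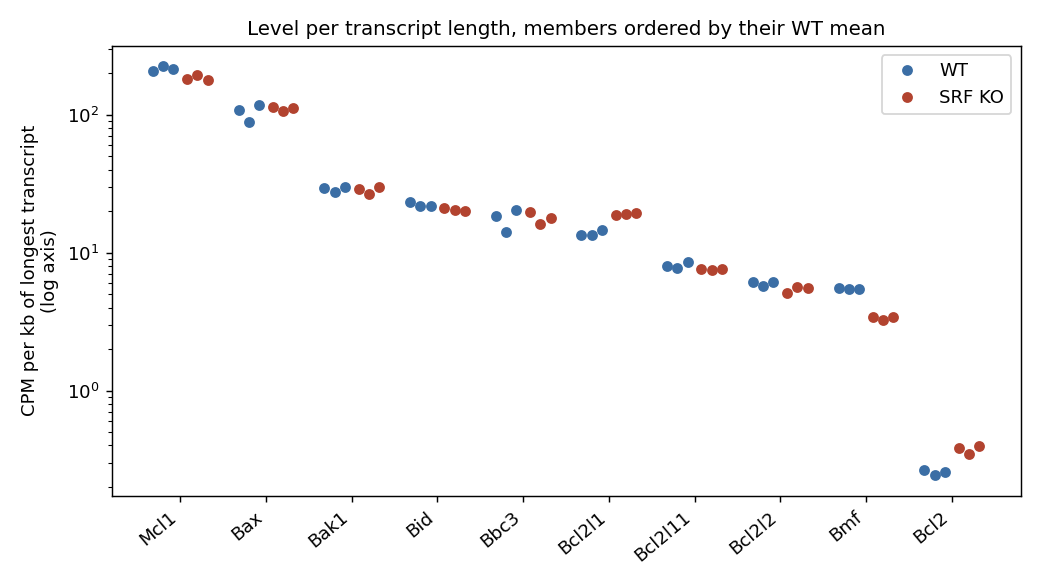
CPM per kb of the longest transcript (vertical log axis) of the 10 members in each WT (blue) and SRF KO (red) library, ordered by the WT mean. Mcl1 was at 216 and Bcl2 at 0.255 CPM per kb in WT, and Bcl2l1, at 13.8 in WT, was at 19.1 in SRF KO.

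Summed by role, the anti-apoptotic members were at 205, 219 and 204 CPM per kb in SRF KO and 229, 243 and 235 CPM per kb in WT. Mcl1 made up most of this sum, 91.5% ± 0.487 of it in the WT libraries and 88.1% ± 0.451 in the SRF KO libraries (SD, n = 3), so that the sum followed Mcl1. Without Mcl1 the order turned, with 24.2, 25.1 and 25.2 CPM per kb in SRF KO against 19.9, 19.4 and 20.8 CPM per kb in WT. The level of Bcl2l1 was 0.103, 0.099 and 0.108 of that of Mcl1 in SRF KO and 0.0646, 0.0598 and 0.0676 of it in WT. This ratio was higher in every SRF KO library than in any WT library.

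The 2 effectors summed to 142, 133 and 142 CPM per kb in SRF KO and 139, 117 and 148 CPM per kb in WT, which overlap. The 4 BH3-only members summed to 51.6, 47.2 and 48.8 CPM per kb in SRF KO and 54.9, 49.1 and 56.2 CPM per kb in WT, which overlap as well. As a ratio to the anti-apoptotic sum, the BH3-only sum was 0.227 ± 0.0218 in the WT libraries and 0.236 ± 0.0182 in the SRF KO libraries, and the effectors were at 0.572 ± 0.0821 and 0.665 ± 0.0506 (SD, n = 3). Neither ratio separated the groups. With all exons joined as the length, the BH3-only ratio was 0.176 in WT and 0.185 in SRF KO. The effector ratio was then 0.449 and 0.528, and the groups overlapped in both. Of the BH3-only sum, Bmf gave 10.3% ± 0.717 in the WT libraries and 6.83% ± 0.185 in the SRF KO libraries (SD, n = 3). The BH3-only sum and its ratio leave out BH3-only genes that are not among the 10 members. Of these, Pmaip1 was abundant and higher in SRF KO (142.1 CPM in WT and 188.9 CPM in SRF KO, not divided by length). Hrk was higher too (5.08 and 8.742 CPM), Bik lower (1.835 and 1.177 CPM) and Bad not called (5.922 and 6.227 CPM). The ratio is thus that of the members alone. These are sums of messages, not of proteins, and no test was made on them.

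The family has further members, and 11 of 15 others listed were tested, of which 3 were higher and 4 lower (21.2% and 21.3% of all genes), with a median log2 fold change of -0.04. Pmaip1, which encodes NOXA, the BH3-only protein that binds MCL1, was at 142 ± 10.7 CPM in the WT libraries and rose to 189 ± 8.01 CPM in the SRF KO libraries (SD, n = 3), by 0.41 on the log2 scale (SE 0.061, adjusted p 0.00024). Hrk, a BH3-only gene best known from neurons, rose by 0.78 (adjusted p 5e-05), from 5.08 to 8.74 CPM. Bcl2a1b, an anti-apoptotic gene of blood cells with near-identical copies that share reads, was higher by 0.93 (adjusted p 0.02) at only 7 to 27 counts per library. Its call was lost under DESeq2 (adjusted p 0.067) and when SRF KO replicate 3 (0.86, adjusted p 0.072) or WT replicate 1 (0.96, adjusted p 0.051) was left out. Of 8 blood cell markers 6 were tested and 2 were higher, where 21.2% of all genes were higher. Their summed level was 30.8 to 38.2 CPM in SRF KO and 24.5 to 26.2 CPM in WT, with Hbb-bs at 0 in all 6 libraries. The part of blood cells in the Bcl2a1b value was not tested.

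The largest fall in the wider family was that of Bnip3, which had 162 ± 8.96 CPM in the WT libraries and 69.7 ± 4.07 CPM in the SRF KO libraries (SD, n = 3) and a log2 change of -1.22 (SE 0.06, adjusted p 3.7e-08). Its relative Bnip3l fell by 0.45 on the log2 scale (adjusted p 2.8e-05). Both encode BH3-like proteins of the mitochondrial surface that take part in mitophagy and are induced by hypoxia. Bik, a BH3-only gene of the endoplasmic reticulum, and Bcl2l12 were lower by a log2 fold change of -0.64 and -0.26 (adjusted p 0.028 and 0.032). Both were near the threshold. Bik lost its call under DESeq2 (-0.63) and when SRF KO replicate 2 (-0.48), replicate 3 of SRF KO (-0.63) or replicate 3 of WT (-0.51) was left out. Bcl2l12 lost its call in 5 of the 6 fits that left out 1 library, all except that without WT replicate 2. It also lost its call under DESeq2 (adjusted p 0.071) and with total count scaling (adjusted p 0.072). Bok, Bad, Bcl2l13 and Bcl2l14 did not pass, at log2 fold changes of 0.30, 0.06, -0.04 and -0.29, though Bok passed without WT replicate 3 (0.48) and with a replicate block (0.31). The remaining 4 listed genes, Bcl2a1a, Bcl2a1d, Bcl2l10 and Bcl2l15, had too few counts to be tested.

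**Figure D4:**
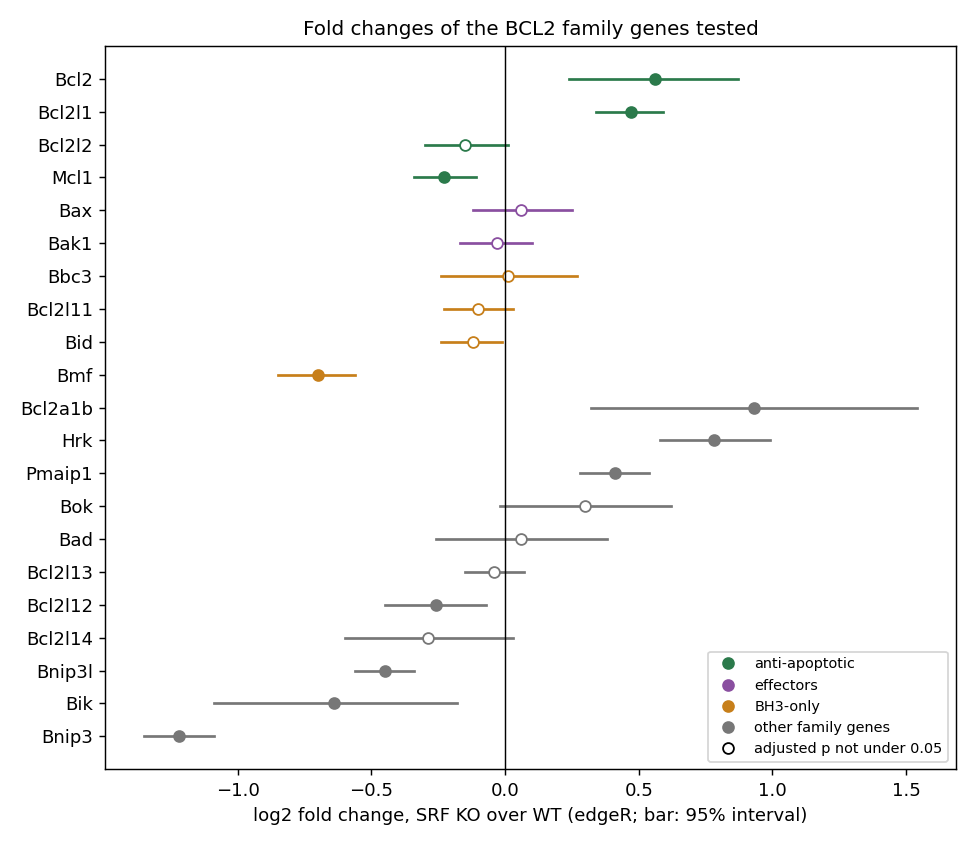
Log2 fold change of SRF KO over WT (horizontal axis) with its unadjusted 95% interval for the 10 members, coloured by role, and for the 11 other family genes tested (grey); filled points have an adjusted p under 0.05. Bcl2a1b had the highest value at 0.93 and Bnip3 the lowest at -1.22, outside the range of the members, -0.70 to 0.56.

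Downstream of the family, once the outer membrane is open, cytochrome c and APAF1 form the apoptosome that activates caspase-9. All 16 listed mitochondrial factors, apoptosome genes and caspases were tested, with 2 higher, 4 lower and a median log2 fold change of -0.10, a share of calls near the 42.4% of all genes. Vdac1, a channel of the outer membrane, fell from 628 ± 26.8 to 499 ± 2.94 CPM (SD, n = 3), by 0.33 on the log2 scale (adjusted p 0.00024). The initiator caspase gene Casp9 and also Casp6 and Casp2 were lower, with log2 fold changes of -0.29, -0.30 and -0.20 (adjusted p 0.014, 0.016 and 0.022). None of these 3 calls held throughout. Casp9 lost its call without SRF KO replicate 3 or WT replicate 1, and Casp6 under DESeq2 and without SRF KO replicate 1 or 3. Casp2 lost it with total count scaling and in all 6 fits that left out 1 library except that without WT replicate 2. Htra2, which encodes a mitochondrial protease and was named after its values were seen, was higher at 0.22 (adjusted p 0.038). Vdac1 kept its call in each of the 6 fits that left out 1 library, but the counts of this list moved: 0 genes were higher when SRF KO replicate 1 or 3 or WT replicate 1 was left out, and 1 was higher when SRF KO replicate 2 or WT replicate 3 was. The number lower was 1 when SRF KO replicate 3 was left out and 2 when replicate 1 of either group was.

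Of 5 genes of the inhibitor of apoptosis family, Birc2 was lower with a log2 fold change of -0.27 (adjusted p 0.0078) and Xiap higher with 0.19 (adjusted p 0.049). Over all genes tested, 21.3% were lower and 21.2% higher. The Xiap values of the groups overlapped, and its call was lost with gene entries alone (adjusted p 0.054) and in 5 of the 6 fits that left out 1 library, all but that without WT replicate 2. Where 21.3% of all genes were lower, 2 of the 7 MCL1 turnover genes tested, of 8 listed, were lower. These were Btrc, a ubiquitin ligase subunit, at -0.26 (adjusted p 0.0032) and Usp9x, which removes ubiquitin from MCL1, at -0.18 (adjusted p 0.025, and 0.11 without SRF KO replicate 1 or without SRF KO replicate 3).

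Upstream, 5 of 8 death receptor genes tested, of 10 listed, rose and 0 were lower, where 21.2% of all genes were higher. The median of the 8 on the log2 scale was 0.44, and the 3 that did not pass had adjusted p of 0.062, 0.12 and 0.32. Tnfrsf1a, a receptor of tumour necrosis factor, rose from 8.94 ± 0.782 to 18.8 ± 0.620 CPM and Casp8, the initiator caspase that cuts BID, from 2.63 ± 0.485 to 5.71 ± 0.439 CPM (SD, n = 3). Their log2 fold changes were 1.07 and 1.10 (adjusted p 1.8e-06 and 9.8e-05). Ripk1 and Cflar, which encodes an inhibitor of caspase-8, rose by 0.48 and 0.41, and Fas, named after its values were seen, by 0.89. The 12 fibroblast markers rose in the same libraries with a median of 1.11 and the 12 endoderm markers with a median of 3.67 (the same with Ttr at its lower bound against a floor of 3 counts), and their part in these rises was not tested.

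Bax, Bbc3 and Pmaip1 are targets of p53, and so the other p53 targets were set beside them. Of 14 such genes outside the family all were tested, and 10 were higher and 0 lower, with a median log2 fold change of 0.34, where 21.2% of all genes were higher. Perp and Plk2 rose by 0.91 and 0.79, and Ccng1 and Mdm2, the latter encoding the ligase that degrades p53, by 0.43 and 0.36 on the log2 scale. Pmaip1 rose by 0.41, while Bax was at 0.06 and Bbc3 at 0.01 with intervals that reached up to 0.25 and 0.27. The difference between Bax or Bbc3 and the other targets was not tested. Trp53, named after its values were seen, was at 0.01 (adjusted p 0.91).

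Among 9 transcription factors known to act on BH3-only genes, 8 were tested, and Myc was higher and E2f1 lower. Of all genes tested, 21.2% were higher and 21.3% lower. Myc, which promotes growth and sensitizes cells to apoptosis, went from 41.0 ± 0.378 CPM in the WT libraries to 87.8 ± 1.39 CPM in the SRF KO libraries (SD, n = 3), a rise of 1.10 on the log2 scale (SE 0.049, adjusted p 1.6e-08). E2f1 fell by 0.49 on the log2 scale (adjusted p 0.0012), and the list's median was -0.04. The other 6 tested did not pass the threshold and lay between -0.18 and 0.15 on the log2 scale. Without WT replicate 2, 2 genes of this list were lower, in a fit that called 3809 of all genes lower, against 3141 with all 6 libraries.

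**Figure D5:**
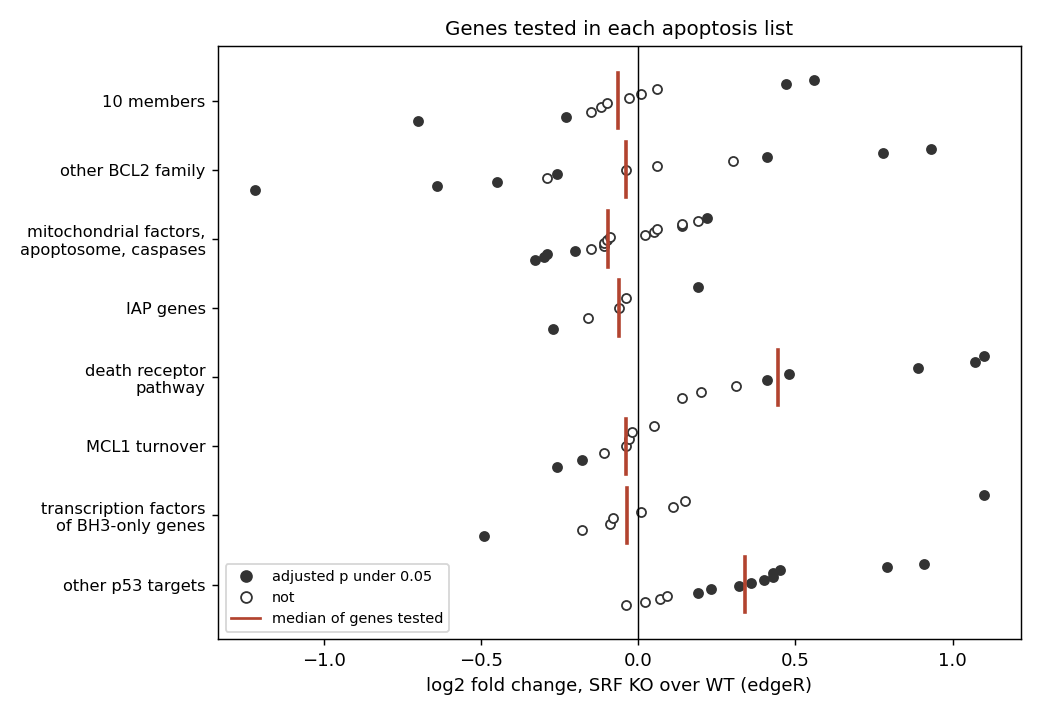
Log2 fold change of SRF KO over WT (horizontal axis) of every gene tested in the 10 members and in 7 lists of other apoptosis genes, with the median of each in red; filled points have an adjusted p under 0.05. The members have a median of -0.06 and points on both sides of 0, while 10 of 14 other p53 targets and 5 of 8 death receptor genes are filled and to the right of 0.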

How the data were processed

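The deposited table holds whole-number counts per gene and per transposable element subfamily for 6 libraries, not normalized, judged from its values. Per the labels, reads were paired, of 150 bp, and the authors trimmed adaptors and discarded poor and empty reads. The submitters' processing notes name mm10 and DESeq2; the aligner, counter, annotation and use of strand are not given in the sources used here. All 15611 features that passed filterByExpr (minimum count 10) were fitted with edgeR 4.0.16 (TMM, quasi-likelihood test, R 4.3.3), with Benjamini-Hochberg adjustment and a threshold of 0.05. Intervals are 95% and unadjusted. A count of 0 allows up to 3 counts, 0.0818 to 0.114 CPM, for counting error only. Gene positions and lengths are from GENCODE M21 (GRCm38), promoters from RefSeq. Alternatives were DESeq2 1.42.0, 3 other scalings, no filter, gene entries alone, stricter thresholds, a replicate block, each library left out and another gene length. In data simulated for this comparison (15611 features, 200 changed), edgeR recovered 85% of changes of 1 on the log2 scale and 99% of changes of 2. Of its calls 8.91% were false, above the threshold of 0.05. The simulation held no change under 1 and changed a far smaller share of features than the 42.4% of genes called here. Recovery of changes as small as those of the members was thus not measured. Replicate pairs differed by more than sampling noise (chi-square per degree of freedom 1.79 to 14.6).

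The members and lists were chosen with earlier results of these data known. The genes named are Srf, the 10 members, all other family genes tested, and up to 4 genes per pathway list of lowest p that passed the threshold. The rule also allowed up to 3 genes per marker list, but none of these is named singly. Of the markers, Ttr and Hbb-bs were named after their values were seen, and others named so are marked in the text. A gene of the lists is counted but not reported singly here.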

Additional observations from a re-analysis of the deposited data

How the results depend on the processing

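Over the 10 members, 132 of 140 comparisons with an alternative kept direction and call. Mcl1, Bcl2, Bcl2l1 and Bmf kept both in all of these, which do not include the limit on the size of the fold change, under which all 4 lost their call. Uncalled members changed sign in 5: Bax (-0.04 without WT replicate 2, 0.15 without WT replicate 3), Bak1 (0.0044 with total count scaling, 0.02 without SRF KO replicate 2, against -0.07 at the lowest without SRF KO replicate 3) and Bbc3 (-0.06 without SRF KO replicate 1, -0.11 without WT replicate 2, 0.13 without WT replicate 3), and 3 were stronger (Bcl2l2 and Bid). Bad changed sign too, to -0.03 without SRF KO replicate 3 and -0.08 when WT replicate 2 was left out (0.21 at the highest, without WT replicate 1). For none of these was the cause tested. No scaling moved the median of all genes beyond -0.013 to 0.024. Depth limits Bcl2 and Bcl2a1b.

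Requiring a fold change of 1 or more on the log2 scale, a step that by its construction lowers counts, left 817 genes higher and 260 lower, 0 members, 0 other family genes higher and 1 lower, 0 mitochondrial and caspase genes, 0 inhibitor of apoptosis genes, 2 death receptor genes, 0 MCL1 turnover genes, 0 transcription factors lower, 0 p53 targets, and 0 pluripotency and 0 blood markers. An adjusted p of 0.01 left 2013 genes lower, 2 other family genes lower, 0 mitochondrial and caspase genes higher and 1 lower, 0 inhibitor of apoptosis genes higher, 1 MCL1 turnover gene lower and 0 pluripotency markers higher. DESeq2 gave 2 other family genes lower and 1 mitochondrial or caspase gene higher, no filter gave 1 of the latter, gene entries alone gave 0 inhibitor of apoptosis genes higher, and total count scaling gave 4 blood markers higher.

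In the 6 leave-one-out fits Srf was between -3.23 and -2.98, genes higher between 2457 and 3652, genes lower between 2274 and 3809, members higher 2 and members lower between 2 and 4. Other family genes were between 2 and 4 higher and 2 and 4 lower, mitochondrial and caspase genes between 0 and 2 higher and 1 and 5 lower, inhibitor of apoptosis genes between 0 and 1 higher, MCL1 turnover genes between 1 and 3 lower and transcription factors between 1 and 2 lower. Pluripotency markers were between 0 and 1 higher and blood markers between 2 and 4 higher. Other family genes lower were 2 when SRF KO replicate 2 or 3 or WT replicate 3 was left out, MCL1 turnover genes 1 without SRF KO replicate 1 or 3, and blood markers 4 without SRF KO replicate 2.

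The deviations of libraries of the same number had correlations of 0.042, 0.203 and 0.096. Those of replicate 2 deviated together but not every pair was over 0.1, so that the numbers were not taken as a pairing. The fit with a replicate block called 3659 genes higher and 3853 lower, 2 members higher and 3 lower, and 5 blood markers higher. With all exons joined as the length, WT levels were 0.2 (Bcl2), 7.73 (Bcl2l1), 5.11 (Bcl2l2), 73.7 (Bax), 5.07 (Bcl2l11), 15.1 (Bid) and 4.84 (Bmf) CPM per kb, and the sums 40.1 (BH3-only) and 102 (effectors).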
